A study of Mus musculus with 68 samples.

Results

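SK, BK and sodium-activated potassium channels are encoded here by 9 genes of the 36172 in the deposited table, chosen by gene symbol: Kcnn1, Kcnn2, Kcnn3, Kcnn4, Kcnma1, Kcnmb2, Kcnmb4, Kcnt1 and Kcnt2. They were measured by Patch-seq, in which the contents of a neuron are drawn into the recording pipette and its RNA is sequenced, in 68 putative dopamine neurons of the ventral tegmental area. The cells came from 12-month-old male and female mice, 33 from 3xTg mice and 35 from WT mice. 3xTg is a triple-transgenic line, homozygous at its transgenes, which include APP with the Swedish mutation and tau P301L, on a mixed C57BL/6 and 129 background. WT mice were not littermates but a line without the transgenes, bred in parallel on that same mixed background. In this model the APP and tau transgenes are driven by a Thy1 promoter, which is active in many kinds of neuron and not in dopamine neurons alone. The labels give each cell a genotype and a number but no mouse, so each genotype counts as 1 sample. The genotypes were therefore compared without a test. An SD describes the spread of cells. Intervals (95%) of ratios take each read as an independent count and leave out the spread of cells and mice. The reads were amplified by PCR without molecular identifiers, so these intervals can be too narrow even for counting error. Intervals of shares take each cell as independent.

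SK channels open when calcium binds the calmodulin that is permanently attached to them, and they need no depolarization. In midbrain dopamine neurons they carry the afterhyperpolarization that follows a spike and keep pacemaking regular, and Kcnn3 is the subunit best known there. BK channels, built from Kcnma1, need both calcium and depolarization, and their gating is set by the beta subunits that Kcnmb2 and Kcnmb4 encode. Kcnt1 (Slack) and Kcnt2 (Slick) encode channels of the same structural family that are opened by intracellular sodium.

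Total counts per cell ranged from 676602 to 1678655 in 3xTg and from 492436 to 1327349 in WT, and the median number of genes with a count was 8526 in 3xTg and 7497 in WT. Counts were rounded to whole numbers and were scaled to 1000000 per cell (CPM). The label numbers form 5 runs of 1 genotype each, and the labels do not say what they stand for. Cells numbered 1 to 22 (WT) had a median of 5251 genes with a count, those from 24 to 55 (3xTg) 7665, from 57 to 74 (WT) 8455, from 76 to 92 (3xTg) 9327 and from 94 to 96 (WT) 6229. Among the defining markers of dopamine neurons, Th, Slc6a3, Slc18a2 and Ddc had a count in all 68 cells, Nr4a2 in 64 and Pitx3 in 14. Per the study's methods, the 68 cells had been selected as positive for the first 3 of these and negative for Pvalb, Tmem119, P2ry12 and Aldh1l1, so those genes give no independent check, although 10 cells had a count of Pvalb, Tmem119 or P2ry12. Of other cell types, the astrocyte marker Aldh1l1 and the endothelial markers Cldn5 and Pecam1 were at 0 in every cell. The endothelial Flt1 had a count in 2 cells, the astrocyte transporter Slc1a3 in 13, the myelin gene Mbp in 67 and the GABA-synthesizing Gad2 in all 68. The summed level of 4 astrocyte markers reached 272 CPM in 3xTg and 2410 CPM in WT, and the summed level of 6 microglial markers ranged from 0 to 4211 CPM in 3xTg and from 0 to 2869 CPM in WT.

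The coding sequences show how far reads of one channel gene could be taken for those of its relative. Reads had been aligned with at least 90% identity to the reference. A window of 90 bases, the most that a read could keep after trimming, was slid along each pair of coding sequences in GENCODE transcripts of build GRCm38 (9 of 9 genes had one). None of the 36 pairs reached 90% identity over this length, and shorter windows, which stand for reads trimmed further at low-quality ends, were not tested. The closest pair was Kcnn1 and Kcnn3, with 80 of 90 bases identical (88.9%), in the stretch that holds the potassium selectivity filter, and Kcnt1 and Kcnt2 shared at most 78 of 90 bases (86.7%). Both windows lie in single coding exons, and capitals mark the bases that differ within a pair. The Kcnn1 window is at chr8:70850624-70850713 on the reverse strand and the Kcnn3 window at chr3:89645470-89645559 on the forward strand.
Kcnn1: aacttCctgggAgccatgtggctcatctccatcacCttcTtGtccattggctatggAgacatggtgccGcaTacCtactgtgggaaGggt
Kcnn3: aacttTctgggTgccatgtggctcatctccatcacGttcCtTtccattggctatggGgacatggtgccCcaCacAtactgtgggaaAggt
The Kcnt1 window is at chr2:25907549-25907638 and the Kcnt2 window at chr1:140533894-140533983, both on the forward strand.
Kcnt1: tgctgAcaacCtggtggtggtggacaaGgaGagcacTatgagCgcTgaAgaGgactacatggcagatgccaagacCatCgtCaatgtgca
Kcnt2: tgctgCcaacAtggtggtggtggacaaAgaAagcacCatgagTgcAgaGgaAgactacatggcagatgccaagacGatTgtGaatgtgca

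Kcnn1 was the only member with words of 50 bases that transcripts of other genes hold on the same strand. There were 45 such words of 3998, shared with 152 genes, 1 of them a member (Kcnmb4, in a transcript other than the one used here, with 3 words), and they lie in a stretch of 94 bases at chr8:70842915-70843008 in its 3' UTR. In the GENCODE transcripts, 4 other members hold words that a gene on the opposite strand shares: 72.23% of those of Kcnmb4, 14.26% of Kcnn2, 7.13% of Kcnma1 (with 4930519K11Rik) and 1.58% of Kcnt2. In the deposited table, A330093E20Rik overlaps the 3' end of Kcnn2 and had counts in 22 cells, 18 of which were among the 24 cells with Kcnn2. It had 212 counts, against 9 for 1700058G18Rik, which overlaps Kcnmb4, and 32 for 4930590L20Rik, which overlaps Kcnt2. The libraries are labelled as directional, but whether strand was used in counting is not stated, so reads of these overlaps cannot be told apart.

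Detection differed widely among the members. Kcnn1 had a count in 58 of 68 cells, Kcnn3 and Kcnma1 in 47 each, Kcnn2 in 24, Kcnt1 in 17 and Kcnt2 in 11. The beta subunits Kcnmb4 and Kcnmb2 were counted in 5 and 2 cells. Kcnn4 had no count in any cell, which allows a share of up to 4.41% by a floor of 3 cells of 68 and up to 5.28% by the Clopper-Pearson interval used for the other shares. A cell held counts of 0 to 6 of the 9 genes, with a median of 3 in both genotypes.

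By mean level, Kcnma1 was highest at 57.2 CPM ± 82.7 (SD, n = 68 cells), followed by Kcnn3 at 52.3 ± 67.8. By the median over the same cells the pair changed places, with 35.27 CPM for Kcnn3 and 22.11 CPM for Kcnma1. Kcnn2 (13.2 ± 31.97), Kcnt1 (12.8 ± 31.8), Kcnt2 (10.3 ± 36.3) and Kcnn1 (6.11 ± 8.31) came next. Every one of the 8 counted members had an SD larger than its mean, so no neighbours in this order differ beyond the spread of cells. Divided by transcript length, the mean levels were 11.2 CPM per kb for Kcnma1, 6.87 for Kcnn3, 6.44 for Kcnn2, 2.56 for Kcnt2, 2.17 for Kcnt1, 1.51 for Kcnn1, 0.377 for Kcnmb4 and 0.103 for Kcnmb2. The place of Kcnn3 depends on its 3' end, since the reference transcript stops 4733 bases before the end of the gene in the deposited table. Without those bases, Kcnn3 came to 18.1 CPM per kb, above Kcnma1 at 12.9.

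**Figure D1:**
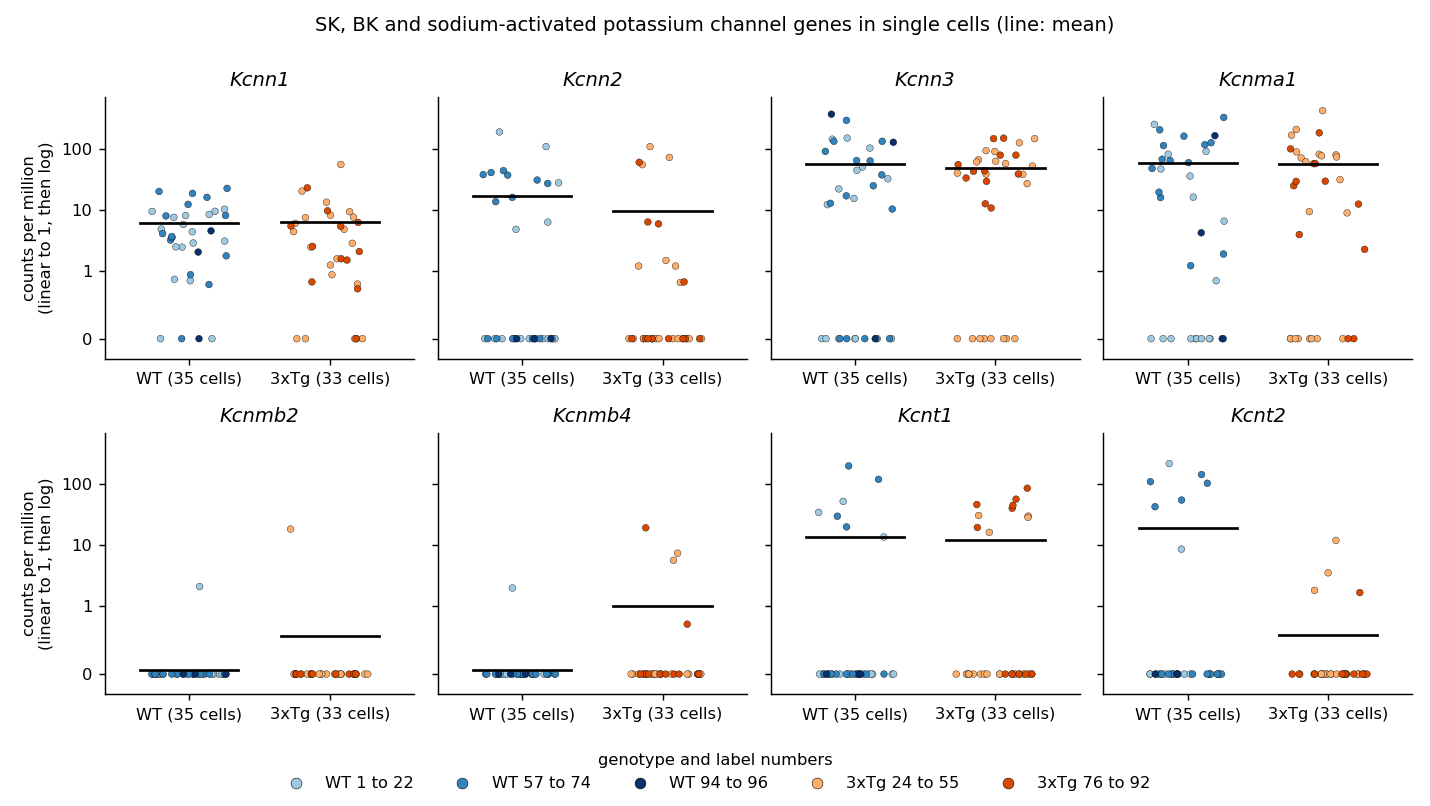
Level of 8 channel genes in each cell, in CPM on an axis that is linear up to 1 and logarithmic above, for 35 WT and 33 3xTg cells. Points are single cells coloured by run of label numbers, and lines are means over cells. For Kcnt2, 6 WT cells have at least 42.75 CPM, and the highest 3xTg cell has 11.99.

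Kcnn3 (chr3:89520164-89672494, forward strand) had the most counts of the SK subunits. In WT its level ran from 0 through a median of 16.95 to 368 CPM, with a count in 22 of 35 cells (62.9%, 44.9 to 78.5%). In 3xTg it ran from 0 through a median of 39.85 to 149 CPM, with a count in 25 of 33 cells (75.8%, 57.7 to 88.9%). The genotypes overlapped over most of their range, and the highest cells of all were WT. Detection was close to all or none: of the 47 cells with a count, 46 had at least 10. After thinning every cell to 700471 counts, which left 61 cells, 77.4% of 3xTg and 63.3% of WT cells kept a count. WT cell 94 alone held 438 counts, 22.1% of the WT sum.

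Kcnn2 (chr18:45560154-45685883, forward strand) encodes an SK subunit prominent in cortex and hippocampus. It had a count in 13 of 35 WT cells (37.1%, 21.5 to 55.1%) and in 11 of 33 3xTg cells (33.3%, 18 to 51.8%). The shares were close, but the counts within those cells were not. In WT, 11 cells had 10 counts or more and none had just 1, whereas in 3xTg 4 cells had 10 or more and 5 had exactly 1. Among cells with a count, the median level was 30.7 CPM in WT and 5.89 CPM in 3xTg. The highest cells were WT cell 21 (189 CPM) and 3xTg cell 29 (108 CPM), so the ranges overlapped.

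Kcnn1 (chr8:70842049-70857008, reverse strand), a further SK pore subunit, was counted in most cells but at few counts. It had a count in 31 of 35 WT cells (88.6%, 73.3 to 96.8%) and 27 of 33 3xTg cells (81.8%, 64.5 to 93%). In WT the level ran from 0 through a median of 4.07 to 22.4 CPM. In 3xTg it ran from 0 through a median of 2.51 to 55.1 CPM. Only 12 of the 58 cells had 10 counts or more, and the highest, 3xTg cell 32, held 65 counts or 29% of the 3xTg sum. Genes found in as many cells (within 2) usually had far more counts: the median sum of 906 such genes was 5748, the sum of Kcnn1 was 414, and 4.64% of them had a smaller sum. By the same measure Kcnn3 and Kcnma1 stood in the middle, with 49.3% and 50.8% of like genes below them. The part of the shared 3' UTR stretch in the Kcnn1 counts was not tested. Kcnn4, the intermediate-conductance relative best known from blood cells and microglia (chr7:24370263-24385212, forward strand), stayed at 0 throughout.

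Set side by side, Kcnn3 gave 74.8% of all SK counts, Kcnn2 17.3% and Kcnn1 7.93%. Of the 52 cells with at least 10 SK counts, Kcnn3 had the most counts in 39, Kcnn2 in 8 and Kcnn1 in 5. The median share of Kcnn3 within a cell was 91.2% over 26 3xTg cells and 61.2% over 26 WT cells, and in both genotypes the share ran from 0 to 100%. Kcnn2 led in 3 3xTg and 5 WT cells. Per kb of transcript the order of Kcnn3 and Kcnn2 depended on the genotype, with mean levels of 6.42 and 4.63 CPM per kb in 3xTg and 7.29 and 8.13 CPM per kb in WT, all of them smaller than their SD over cells except Kcnn3 in 3xTg (5.89).

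**Figure D2:**
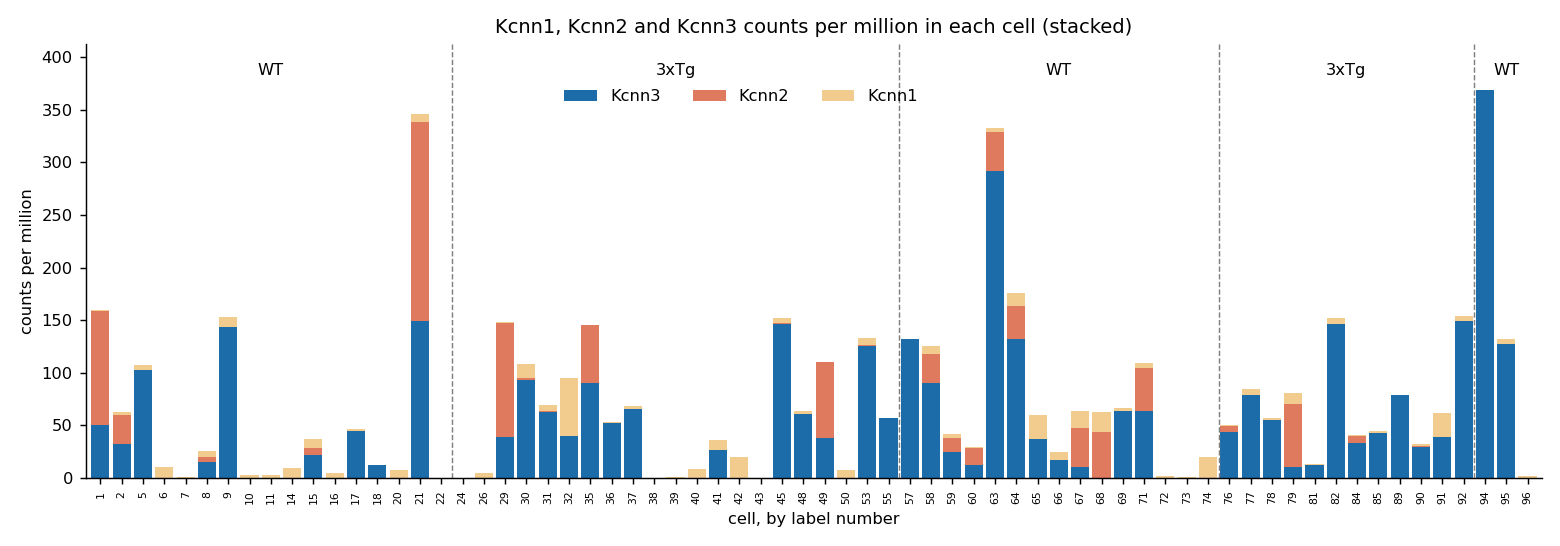
Stacked CPM of Kcnn3, Kcnn2 and Kcnn1 in each of the 68 cells, in order of label number, with dashed lines between runs. Kcnn3 fills most of the bar in most cells. Kcnn2 has the most counts in 8 of the 52 cells with at least 10 SK counts, WT cell 21 and 3xTg cell 29 among them. WT cell 94 has the highest bar, all of it Kcnn3.

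Kcnma1 (chr14:23298694-24004205, reverse strand), the pore of the BK channel, was counted in 24 of 35 WT cells (68.6%, 50.7 to 83.1%) and 23 of 33 3xTg cells (69.7%, 51.3 to 84.4%). Its level ran from 0 through a median of 16.1 to 326 CPM in WT. In 3xTg it ran from 0 through a median of 29.2 to 421 CPM. The 2 genotypes overlapped throughout, and among cells with a count the medians were 61.6 CPM in WT and 61.3 CPM in 3xTg. Kcnmb4 (chr10:116417868-116473523, reverse strand), the main neuronal BK beta subunit, which slows activation, was counted in 3xTg cells 30, 48, 76 and 79 (5, 8, 1 and 18 counts) and in WT cell 22 (2 counts). Kcnmb2 (chr3:31902703-32200180, forward strand), whose product inactivates the channel, was counted in 3xTg cell 48 (26 counts) and WT cell 15 (2 counts). All 5 cells with Kcnmb4 and both cells with Kcnmb2 also had counts of Kcnma1. The reverse did not hold, since 10.6% of the 47 Kcnma1 cells had a Kcnmb4 count.

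Kcnt1 (chr2:25863854-25918273, forward strand) was counted in 7 of 35 WT cells (20.0%, 8.44 to 36.9%) and 10 of 33 3xTg cells (30.3%, 15.6 to 48.7%). Every cell with a count had at least 11, so cells were either clearly positive or at 0. The median over cells with a count was 34.5 CPM in WT and 35.5 CPM in 3xTg, and the highest cells were WT cell 65 (199 CPM) and 3xTg cell 92 (85.8 CPM). The genotypes overlapped.

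Kcnt2 (chr1:140246257-140610261, forward strand) was counted in few cells, and most of its counts lay in WT. In WT it was counted in cells 8, 9, 65, 66, 67, 69 and 71, with 9, 253, 96, 68, 96, 85 and 42 counts. In 3xTg it was counted in cells 24, 45, 48 and 90, with 2, 10, 5 and 2 counts. Of these, 6 WT cells had more counts than any 3xTg cell, while 28 WT and 29 3xTg cells were at 0. Of the 6 WT cells with label numbers from 65 to 71, 5 had Kcnt2 and cell 68 did not, and WT cell 9 gave 39% of the WT sum. Among these 6 neighbours, Kcnt1 was counted in cells 65 and 67 (133 and 105 counts) and Kcnn2 in cells 67, 68 and 71 (33, 33 and 40 counts). All 7 WT cells with Kcnt2 also had Kcnn1, Kcnn3 and Kcnma1.

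For the comparison of 3xTg with WT mice, the counts of all cells of a genotype were added up and divided by their added totals, and a gene was called when the ratio of these sums passed 2-fold. The fold was read only where either genotype had a count in 20% of its cells or more and both had over 3 counts in all. Of the 9 members, 6 met this, and 1 of them, Kcnt2, was past 2-fold, lower in 3xTg, and none was past 2-fold higher. Over all 12114 genes that met it, 11.3% were past 2-fold lower in 3xTg and 10.1% higher, so 1 of 6 is near the background. Kcnt2 met the limit only through WT, where exactly 7 of 35 cells had a count, so a gene of its kind had to be high in WT to be read at all.

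Kcnt2, the sodium-activated Slick channel, summed to 649 counts in WT and 19 in 3xTg, with a log2 ratio of -5.20 (-5.94 to -4.55). Kcnn2 summed to 347 and 557 counts, a log2 ratio of -0.79 (-0.99 to -0.60), or -0.27 when each cell was first divided by its size factor. Without 3xTg cell 29 the Kcnn2 ratio was -1.33, past 2-fold, and without WT cell 21 it was -0.33. Leaving out 3xTg cell 35, 49 or 79 also took Kcnn2 past 2-fold. The other 4 members lay between -0.21 and 0.30 and turned sign when a single cell was left out. Kcnn3 (-0.16, -0.25 to -0.07) became 0.15 without WT cell 94, and Kcnma1 (-0.21, -0.30 to -0.12) became 0.03 without WT cell 72. Kcnn1 (0.13, -0.16 to 0.41) became -0.32 without 3xTg cell 32, and Kcnt1 (0.30, 0.11 to 0.50) became -0.13 without 3xTg cell 92 and 0.92 without WT cell 65. The beta subunits did not meet the limit, with 32 against 2 counts for Kcnmb4 (log2 ratio 3.89, 1.92 to 7.0) and 26 against 2 for Kcnmb2 (3.59, 1.59 to 6.71), the latter from a single 3xTg cell.

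Means over cells on a log scale had the opposite sign to the ratio of sums for 3 members. The mean of log2(normalized count + 1) of Kcnn3 was 4.32 ± 2.63 (SD, n = 33 cells) in 3xTg and 3.46 ± 2.98 (n = 35) in WT, a difference of 0.86 where the ratio of sums was below 0. Kcnma1 likewise had a mean difference of 0.25, and Kcnn1 one of -0.21 where its ratio of sums was above 0. On this scale the median gene that met the limit was itself 0.42 higher in 3xTg, while its ratio of sums was -0.04. Relative to that median, the mean differences were 0.44 for Kcnn3, 0.08 for Kcnt1, -0.18 for Kcnma1, -0.63 for Kcnn1, -1.06 for Kcnn2 and -1.30 for Kcnt2. Kcnn2 and Kcnt2 were lower in 3xTg by both measures, and for every member the difference was smaller than the larger of the 2 SDs over cells.

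**Figure D3:**
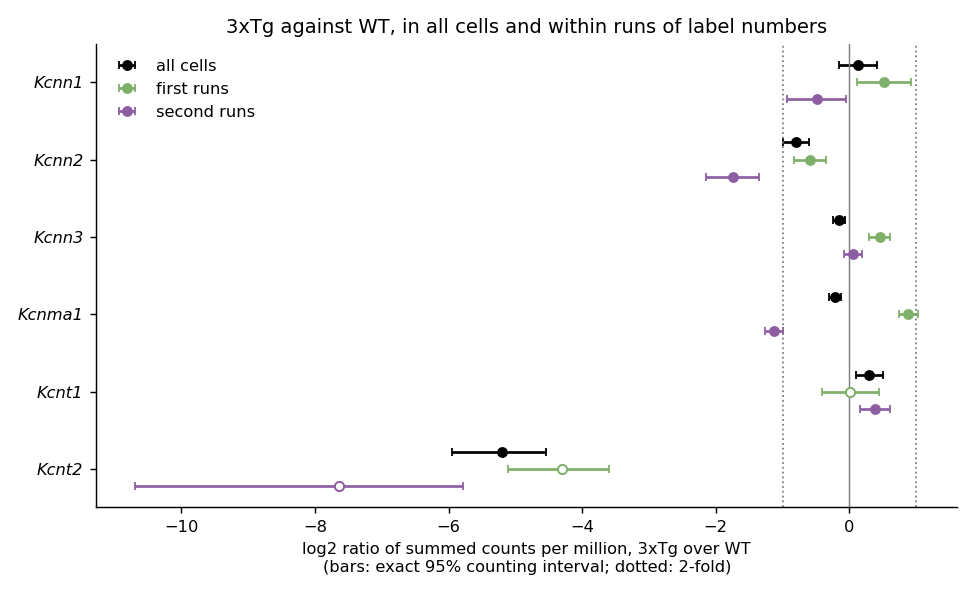
Log2 ratio of summed CPM, 3xTg over WT, for the 6 members that met the count limit, in all cells (black) and within the first (green) and second (purple) runs of label numbers. Bars are exact 95% counting intervals, open points did not meet the count limit within their runs, and dotted lines mark 2-fold. Kcnma1 lies on opposite sides of 0 in the runs. In the first runs, Kcnn1 turns to -0.25 without 3xTg cell 32, Kcnn2 to 0.37 without WT cell 21 and Kcnt2 to 0.45 without WT cell 9.

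Since label numbers run within genotypes, each ratio was also taken between neighbouring runs. The first runs set cells 24 to 55 of 3xTg beside cells 1 to 22 of WT, and the second set cells 76 to 92 of 3xTg beside cells 57 to 74 of WT. Kcnma1 went opposite ways. In the first runs it had 1283 counts in 3xTg beside 540 in WT (log2 ratio 0.89, 0.74 to 1.03). In the second runs it summed to 652 and 1380, a ratio of -1.12 (-1.26 to -0.99), so the near-equal totals over all cells join 2 unequal parts. The signs held whichever single cell was left out, but the sizes did not, from 0.45 (without 3xTg cell 42) to 1.91 (without WT cell 9) in the first runs and from -1.87 (without 3xTg cell 92) to -0.79 (without WT cell 72) in the second. Its share of cells with a count was 47.1% in WT 1 to 22 and 93.3% in WT 57 to 74, against 61.9% and 83.3% in the 3xTg runs. Kcnn1 went from 0.52 (0.11 to 0.93) to -0.49 (-0.94 to -0.05), but was -0.25 in the first runs without 3xTg cell 32 and -1.21 in the second without 3xTg cell 91.

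Kcnn2 was at -0.59 (-0.83 to -0.35) and -1.74 (-2.14 to -1.36). The first value rested on WT cell 21, without which it was 0.37, and was -1.30 without 3xTg cell 29, whereas the second stayed between -3.75 (without 3xTg cell 79) and -1.57 when any 1 cell was left out. WT 57 to 74 had 8 of 15 cells with Kcnn2, all of them with 17 counts or more. Kcnn3 was above 0 in both, at 0.46 (0.30 to 0.61) and 0.06 (-0.07 to 0.19), whereas the pooled ratio was below 0. In the second runs it was -0.21 without 3xTg cell 92 and 0.62 without WT cell 63, and in the first between 0.29 and 0.88. WT 94 to 96, which belong to neither pair of runs, held 551 of its 1986 WT counts. All 12 cells of 3xTg 76 to 92 had a Kcnn3 count, against 11 of 15 in WT 57 to 74. Kcnt1 was 0.02 (-0.41 to 0.45) and 0.38 (0.15 to 0.60), with the second at -0.13 without 3xTg cell 92 and 1.21 without WT cell 65. It was counted most often in 3xTg 76 to 92 (6 of 12 cells). Kcnt2 was -4.31 (-5.11 to -3.60) in the first runs, where WT cell 9 held 253 of 262 WT counts and the ratio without it was 0.45, and -7.64 (-10.69 to -5.78) in the second, where 3xTg had 2 counts. Within the runs, Kcnt2 in both and Kcnt1 in the first did not meet the count limit, so these values are ratios of few cells and were not read as folds. Whether these differences follow the runs, the mice or the cells cannot be told apart.

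**Figure D4:**
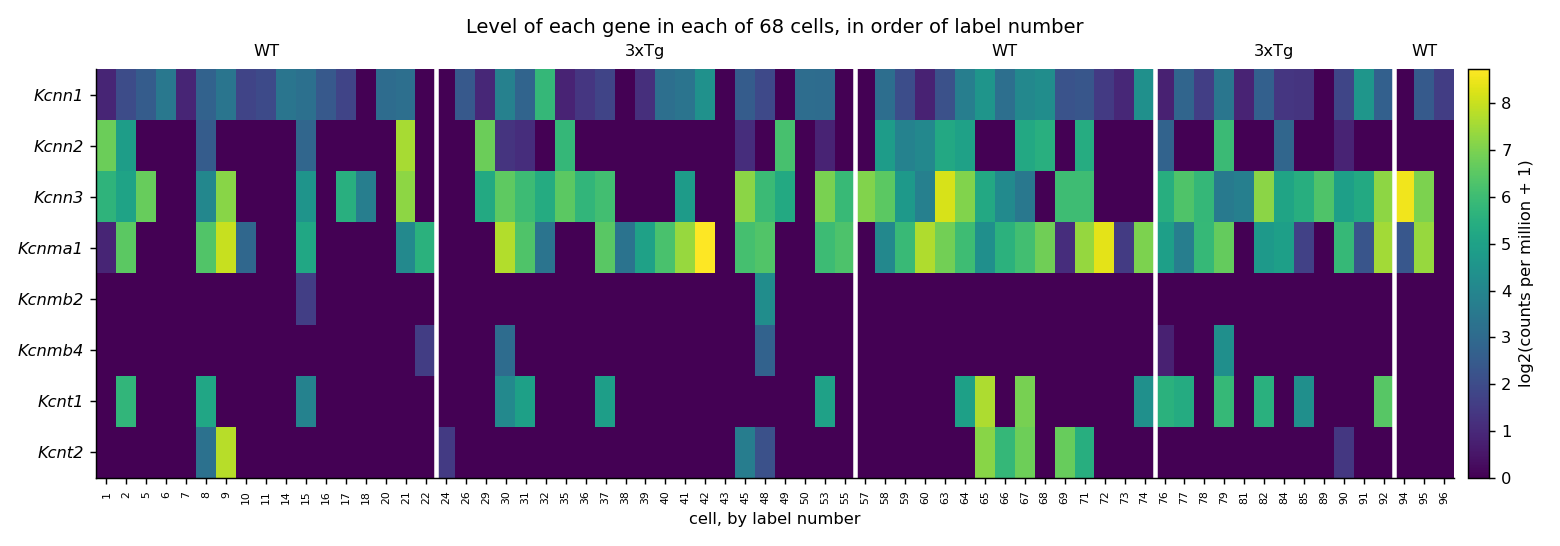
Level of 8 channel genes (rows, as log2 of CPM plus 1) in each of the 68 cells in order of label number (columns), with white lines between runs. Kcnma1 fills nearly all cells of WT 57 to 74 but 8 of 17 cells of WT 1 to 22, and the Kcnt2 signal sits mainly between WT cells 65 and 71.

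The members were often found in the same cells. Kcnn3 and Kcnma1 were counted together in 37 cells, and 11 cells had neither. Each had a count in 69.1% of all 68 cells and in 78.7% of the cells with the other. The rarer genes lay almost within the commoner ones. Of 24 cells with Kcnn2, 23 had Kcnn3 and 21 had Kcnma1. All 17 cells with Kcnt1 had Kcnma1, and 16 had Kcnn3. Of 11 cells with Kcnt2, 10 had Kcnn3 and 10 had Kcnma1. The sodium-activated pair was counted together in 3 cells, all WT, so 27.3% of Kcnt2 cells had Kcnt1, beside 25% of all cells. How many genes a cell yielded moved with this. Over the 68 cells, which share 1 protocol but differ in depth, Spearman's rho between the number of genes with a count and the normalized count was 0.561 for Kcnt1, 0.519 for Kcnma1, 0.407 for Kcnn3, 0.375 for Kcnn2, 0.255 for Kcnn1 and 0.181 for Kcnt2. Its part in the joint counts was not tested.

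Markers within the dopamine neuron class were compared with the members as a description. Otx2, a transcription factor of ventral tegmental subtypes, had a count in 15 cells. Of these, 14 (93.3%) had Kcnn3 and 9 (60%) had Kcnn2, against 62.3% and 28.3% of the other 53. Slc17a6, the vesicular glutamate transporter, gave like figures, with Kcnn3 in 13 and Kcnn2 in 8 of 14 cells, against 63% and 29.6% of the other 54. Aldh1a1, an aldehyde dehydrogenase of a dopamine neuron subtype, had a count in 50 cells, of which 62% had Kcnma1, against 88.9% of the other 18. Kcnn3 also had the lower share in Aldh1a1 cells (64% and 83.3%), whereas Kcnn2 had the higher one (38% and 27.8%). Cells with Sox6 had Kcnma1 in 14 of 16 and Kcnn3 in 13 of 16, against 63.5% and 65.4% of the other 52. The number of genes in a cell bears on all of these shares, and its part in them was not tested.

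Cx3cr1, a chemokine receptor of microglia, had a count in 59 of all 68 cells, and that share is the background for the joint counts that follow. These 59 cells held all 47 cells with Kcnma1, all 17 with Kcnt1, all 5 with Kcnmb4 and both with Kcnmb2. They also held 23 of 24 with Kcnn2, 44 of 47 with Kcnn3, 10 of 11 with Kcnt2 and 51 of 58 with Kcnn1. The part of the number of genes in a cell in these joint counts was not tested. Against C1qb, a complement gene of microglia with a count in 23 cells, the members went different ways. Kcnma1 was counted in 69.6% of C1qb cells and 68.9% of the rest. Kcnn1 (95.7% and 80%), Kcnt1 (34.8% and 20%) and Kcnt2 (21.7% and 13.3%) had a higher share in C1qb cells, and Kcnn2 (21.7% and 42.2%) and Kcnn3 (60.9% and 73.3%) a lower one. Other microglial markers did not repeat this. In the 17 cells with C1qa, the shares of Kcnt1 (17.6% and 27.5%), Kcnt2 (11.8% and 17.6%) and Kcnma1 (58.8% and 72.5%) were lower. Kcnn1, Kcnn2 and Kcnn3 went the same way with C1qa as with C1qb. In the 9 cells with Csf1r, Kcnn1 was lower (77.8% and 86.4%) and Kcnt1 higher (33.3% and 23.7%). The differences between these shares were not tested. The part of other cells in these values was not tested. Leaving out the 10 cells with P2ry12, Tmem119 or Pvalb, markers of microglia and of fast-spiking interneurons, gave log2 ratios of -5.15 for Kcnt2, -0.69 for Kcnn2, 0.87 for Kcnt1 and -0.31 for Kcnn1. Several glial markers were lower in 3xTg than in WT cells in the same sums, C1qb by a log2 ratio of -2.08, the astrocyte transporter Slc1a3 of -3.47 and the myelin gene Mbp of -1.75. Others of the same lists were higher in 3xTg, with Cx3cr1 at 0.27, the astrocyte gene Gfap at 0.74 (counted in 3 cells) and the myelin gene Mog at 54 counts against 0 (in 2 cells), and their part in the genotype ratios of the channels was not tested.

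The enzymes that act on the SK channel complex were counted in 31 (Ppp2r1b) to 68 (Csnk2a1) cells. Csnk2a1, Csnk2a2 and Csnk2b encode casein kinase 2, which phosphorylates the calmodulin bound to the channel, and the Ppp2 genes encode subunits of the phosphatase that opposes it. All 7 of these genes met the count limit and none was past 2-fold, with 6 above 0 and a median log2 ratio of 0.26 beside -0.04 over all genes. The 6 dopamine neuron markers had a median of 0.35, and all of them were above 0. The largest was Ppp2r1a, a scaffold subunit, at 0.60 (0.57 to 0.63). Csnk2a1 was 0.48 (0.39 to 0.56), but 0.90 in the first runs and 0.20 in the second, and Ppp2cb was the single gene below 0 (-0.28). Of the 7 genes, 3 had opposite signs in the first and second runs: Ppp2cb (-1.265 and 1.116), Ppp2r1b (-0.98 and 1.83) and Csnk2a2 (0.93 and -0.77).

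Among other relatives and auxiliary subunits of BK and Slo channels, 3 of 8 genes met the limit and none was past 2-fold. Kcnmb1, the beta subunit best known from smooth muscle, had a count in 56 cells at 300 against 267 counts (log2 ratio 0.06, -0.18 to 0.30). It was thus far more often counted than Kcnmb2 or Kcnmb4, at few counts per cell, and its ratio turned from 0.68 in the first to -0.75 in the second runs. Lrrc55, an auxiliary gamma subunit that lets BK channels open at lower voltages, had 1917 counts in 3xTg and 3052 in WT (-0.78, -0.86 to -0.70), below 0 in the first (-0.68) and second (-0.60) runs. It was counted in 42 cells. Lrrc26, Lrrc38 and Lrrc52, the other gamma subunit genes, were at 0.

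Of 14 genes for calcium entry and store release, 9 met the limit, and Itpr1, the neuronal inositol trisphosphate receptor, was past 2-fold, lower in 3xTg (720 against 1340 counts, log2 ratio -1.01, -1.14 to -0.87). A count of 1 in 9 is near the 11.3% of all genes past 2-fold lower. Itpr1 was under 2-fold within the first (-0.52) and second (-0.62) runs. WT cell 94, which belongs to neither, held 359 of its 1340 WT counts. Cacna1e (-0.72) and Cacna1a (-0.70), pore subunits of R-type and P/Q-type calcium channels, were lower in 3xTg, and Cacna1d, the L-type subunit linked to pacemaking, was higher (0.50). The sign turned between the first and second runs for Cacna1a (0.53 and -1.64) and Cacna1d (1.10 and -0.50), while Cacna1e was below 0 in both (-0.10 and -1.48). The median of the 9 was -0.28. Of 6 genes for sodium entry all met the limit and none was past 2-fold, with a median of 0.00. Scn2a1 was 0.61 and Scn1a, another sodium channel pore gene, was -0.87, with Scn1a at -0.35 in the first and -1.39 in the second runs.

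Kcnn1 was the only member counted widely enough (at least 80% of all cells) for a search of genes with a like pattern. Among 3306 other genes counted as widely, Cmah, an enzyme of sialic acid synthesis, was most like it (Spearman's rho 0.545 over 68 cells), followed by Slc7a2, a cationic amino acid transporter (0.539), and 5530601H04Rik (0.512). Their sums were 13815, 1723 and 2982 counts, against 414 for Kcnn1. Within 3xTg cells rho was 0.572, 0.577 and 0.661, and within WT cells 0.513, 0.45 and 0.406, and none of the 3 remained among the 3 highest in either genotype.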

How the data were processed

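Single neurons of the ventral tegmental area were aspirated after recording, and each deposited sample was 1 cell. Per the study's methods, the authors trimmed both read ends and used Strand NGS for alignment to RefSeq transcripts of mm10 and for removal of duplicates. They deposited an estimated count per gene and cell. They also deposited log2 values normalized with DESeq2 and shifted per gene by an unstated amount, which served here as an alternative. All columns were mapped to the 68 cells by title, and 0 were left over.

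Estimated counts were rounded to whole numbers. Size factors were medians of ratios over 722 genes with a count in every cell. Ratios compared summed counts scaled to 1000000 per genotype (CPM), with exact intervals of the 2 sums (95%), Clopper-Pearson intervals for shares of cells and a floor of 3 counts. Transcript lengths came from the longest RefSeq-linked coding GENCODE M21 transcript within 500 bases of the gene's span, extended at the 3' end to the span of the table. Genes were named by rule: the members, the pathway and marker lists (some items of the lists and labels are not reported here, and the counts for kinase and phosphatase subunits are over those genes alone), and the 3 genes most like a member counted in at least 80% of cells. Members and lists were chosen with earlier results of these data known. Before use, the ratios of summed counts were checked on simulated counts with 200 changed genes. Alternatives were other scalings, fold and count limits, pseudocounts, thinning, runs, and leaving out cells. Leaving out each cell for the number of calls and within runs, and leaving out WT cells 65 to 71, were chosen after seeing the data. Python 3.11.15, numpy 2.4.6, scipy 1.17.1, pandas 2.3.3, matplotlib 3.10.9, R 4.3.3 and edgeR 4.0.16 (for TMM factors) were used.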

Additional observations from a re-analysis of the deposited data

How the results depend on the processing

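The number of members past 2-fold was 1 of 6 (Kcnt2) over all cells. It stayed 1 with size-factor-normalized sums, TMM library sizes, thinning and without each gene's top cells, beside 21.4 to 25.5% of all genes. It was 0 without the cells with a marker of another cell type (23.2% of all genes) and 0 in the first runs (33.3%). It was also 0 when a normalized count was asked for in 80% of the cells of 1 genotype (6.49%). In each of these Kcnt2 was under the limit on the share of cells, by fewer cells or the stricter limit. It was 2 of 6 at a fold of 1.5 (with Kcnn2), beside 42.1% of all genes, and 2 of 5 in the second runs (Kcnn2 and Kcnma1), beside 33%. It was 3 of 8 (with Kcnmb2 and Kcnmb4) when the limits were replaced by over 3 counts in either genotype, beside 34.6%. Each of these is near the share over all genes. Leaving out each cell in turn gave 0 to 2. Any of the 7 WT cells with Kcnt2 took the number to 0, by putting Kcnt2 under the limit on the share of cells. The Kcnt2 ratio itself stayed between -6.25 and -4.54 whichever cell was left out. Leaving out 3xTg cell 29, 35, 49 or 79 took the number to 2 by adding Kcnn2. Of the 6 members read, 4 had a ratio below 0, against 2 in the first runs, and 3 to 5 when each cell was left out. Without WT cells 65 to 71 the ratio was -4.14 for Kcnt2 and 1.55 for Kcnt1. The mean log2 differences kept 3 members below 0 with pseudocounts of 0.1 and 10 and with the deposited log2 values, while Kcnma1 joined them after thinning and in the second runs. The genes most like Kcnn1 were the same 3 given the number of genes detected and on CPM, and 0 of the 3 within 3xTg cells and 0 within WT cells. By the median over cells, 1 member kept its place in the order of levels: Kcnn3 and Kcnma1 swapped, Kcnn1 was at place 3 and the other 6 medians were 0. Per kb, 7 kept theirs. No paired analysis was possible because the genotypes share no label numbers. With no mouse named, neither animals nor batches can be separated from genotype, and a count of 0 in a cell does not show that a gene was silent.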
